A study of Mus musculus with 48 samples.

Results

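The genes described here are 10 G protein-coupled receptors of astrocytes, Grm3, Grm5, Gabbr1, Gabbr2, Adora1, Adra1a, S1pr1, Ednrb, Ntsr2 and Gpr37l1. They were taken by name from the 47643 Ensembl genes of the count files, and all 10 were among the 14618 genes that passed the filter on low counts. Ribosome-bound RNA of the mouse dorsal hippocampus was counted in whole astrocytes (Astro) and in perisynaptic astrocytic processes (PAP), the fine branches that lie against synapses. All animals carried the transgene Tg(Aldh1l1-eGFP/Rpl10a) JD130Htz, in which a promoter active in astrocytes drives ribosomal protein L10a fused to a green fluorescent protein. An antibody to that protein then pulls down tagged ribosomes with the RNA bound to them (translating ribosome affinity purification, TRAP). The 3 mice, C1 to C3 in the labels, are called animals 1 to 3 here; each gave both compartments, and each compartment was sequenced as 8 technical replicates, 48 samples in all. The labels give no age, no sex and no treatment, and no pulldown from animals without the transgene was analysed here. Technical replicates were summed, so each group held 3 pooled libraries (n = 3), and levels are CPM, the counts relative to each library total after scaling with the TMM factors of edgeR.

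G protein-coupled receptors are membrane proteins that answer a ligand outside the cell by switching on a heterotrimeric G protein inside it. The alpha subunit of that G protein sets the next step: Gq opens internal calcium stores through phospholipase C, Gs raises cyclic AMP, and Gi lowers it. In astrocytes these receptors read transmitters that spill from synapses, such as glutamate, GABA, adenosine and noradrenaline, and also lipids and peptides from blood vessels and other cells. The signal ends when receptor kinases and arrestins silence the receptor and RGS proteins switch the G protein off.

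The PAP libraries were shallower than the Astro libraries, with 1829962 to 2980984 against 18707844 to 20293538 counts, so 3 counts, taken as the floor of detection, equalled 0.991 to 1.55 CPM in PAP and 0.152 to 0.176 CPM in Astro. The spread between animals was also larger in PAP, with a biological coefficient of variation of 1.58 against 0.334 in Astro. The 10 astrocyte markers were present in all 6 libraries, and their summed level was 30735, 25076 and 22357 CPM in Astro animals 1 to 3 and 3612, 8014 and 13751 CPM in PAP, with 5 of the 10 lower in PAP by the edgeR test. The 10 neuron markers summed to 676, 969 and 1211 CPM in Astro and to 465, 1342 and 683 CPM in PAP, where 2, 1 and 5 of them were at 0. The 8 microglia markers summed to 89.3, 84.9 and 42.1 CPM in Astro and 60.7, 29.9 and 21.5 CPM in PAP, where Cx3cr1, P2ry12, Tmem119 and Aif1 were at 0 throughout and C1qb reached 29.9 CPM. The 7 endothelium markers summed to 5.05, 4.52 and 5.08 CPM in Astro and to more in PAP, 24.5, 15.5 and 15.5 CPM, mostly Ly6c1 and Tek, with Cldn5 and Cdh5 at 0. Oligodendrocyte markers summed to 789 to 853 CPM in Astro and 498 to 1015 CPM in PAP. The choroid plexus gene Ttr ran from 2368 to 19333 CPM in Astro and from 640 to 6612 CPM in PAP, while the other 3 ependyma and choroid plexus markers, Foxj1, Ccdc153 and Tmem212, had at most 1 count in any PAP library. Fewer astrocyte ribosomes in a pulldown and less receptor RNA per ribosome cannot be told apart in such bulk libraries.

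The design sets the RNA on ribosomes of the processes against that of the whole cell. By edgeR's quasi-likelihood test with Benjamini-Hochberg adjustment over all genes, 3 of the 10 receptors were lower in PAP, namely Adra1a, S1pr1 and Gpr37l1, and 0 were higher. Adra1a passed the filter on low counts through its Astro libraries alone, so it could be called only in that direction. Over all genes tested, 15.4% were lower and 5.92% higher by the same rule. The median log2 difference, PAP minus Astro, was -1.11 over the 10 receptors and -0.53 over all genes tested. The order of these medians turned with the animal as a block, at -1.51 and -1.63, and without PAP animal 1, at -0.71 and -0.88. For 4 receptors, Grm3, Adra1a, S1pr1 and Gpr37l1, every PAP library lay below every Astro library, as it did for 35.1% of all genes tested. With the animal as a block, 0 of the 10 receptors passed in either direction, and of all genes 0.0342% were called lower and 0.876% higher, a balance opposite to that without the block.

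The receptors also differed in how evenly they were found in the 3 PAP libraries. Grm3, Grm5 and Adora1 ranged from 3 counts or fewer in 1 PAP library to 100 or more in another, a pattern shared by 16.4% of all genes tested and described after the values were seen. Apart from Adra1a, which had no PAP count, every receptor but Gabbr2 had its highest PAP level in animal 3. These 8 of 10 compare with 31.2% of all genes tested, and the sum of the astrocyte markers above was also highest in PAP animal 3; its part in this pattern was not tested.

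**Figure D1:**
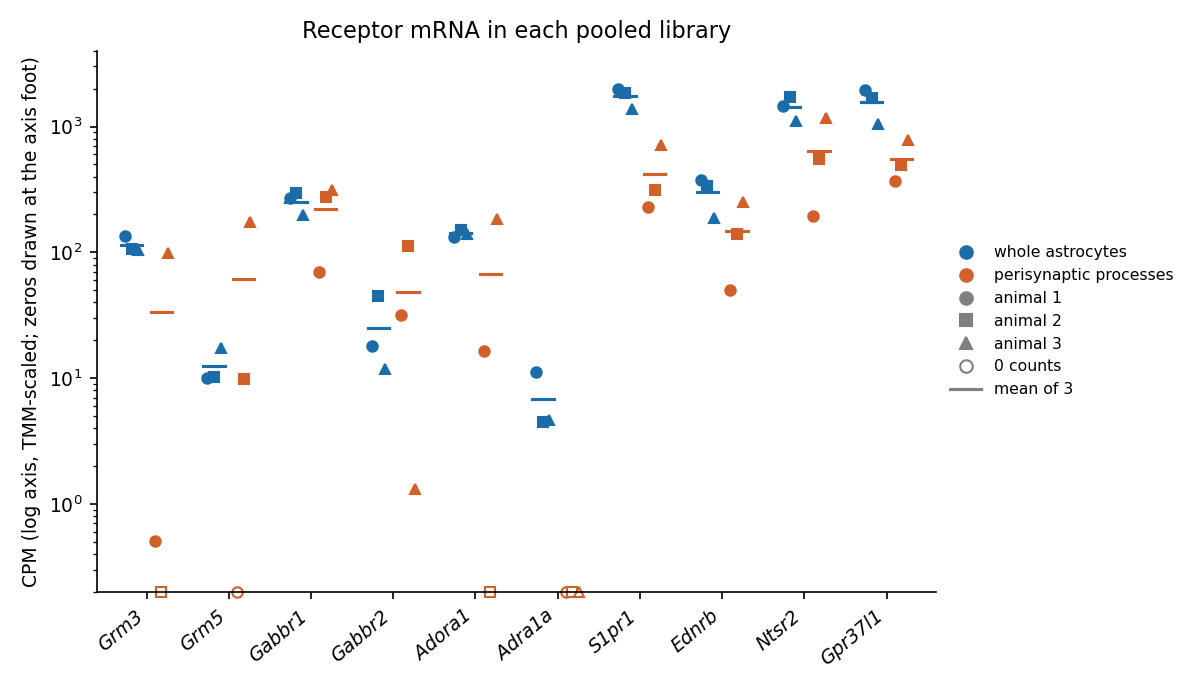
Level of each receptor (CPM on a log axis, TMM-scaled) in the 3 Astro and 3 PAP libraries; symbols mark animals, bars the mean of 3, and open symbols at the foot libraries with 0 counts. The Astro points of most receptors lie close together, while the PAP points of Grm3, Grm5 and Adora1 run from at most 3 counts to levels near or above Astro.

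Grm3 and Grm5 encode metabotropic glutamate receptors 3 and 5, which read glutamate near synapses and couple to Gi and Gq, respectively. Grm3 (chromosome 5, 9485541 to 9725170, minus strand, GRCm38) stood at 134, 105 and 103 CPM in Astro animals 1 to 3 and at 0.510, 0 and 99.5 CPM in PAP. Its Astro libraries were alike, whereas PAP animals 1 and 2 held 1 and 0 counts and PAP animal 3 held 301, just below the lowest Astro level. The log2 difference was -1.77 ± 1.92 (SE), and edgeR's adjusted p was 0.629. The log2 difference was -6.32 with the animal as a block and -8.81 without PAP animal 3, where edgeR's adjusted p was 0.0138, the lowest of the settings tried, which reached up to 0.851. With all 6 libraries, limma voom with weights for each group gave -5.70 and an adjusted p of 0.0430.

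Grm5 (chromosome 7, 87584168 to 88134907, plus strand) was a scarce transcript of whole astrocytes, at 9.94, 10.2 and 17.4 CPM. In PAP it was at 0, 9.79 and 174 CPM, so that animal 3 stood above every Astro library, animal 2 at the Astro level and animal 1 at 0. The 528 counts of PAP animal 3 came in 53 to 83 counts from each of the 8 technical replicates, which repeat the same sample. The log2 difference was 2.30 ± 1.91 (SE) and edgeR's adjusted p was 0.511. With the animal as a block its sign turned, to -0.26, with an edgeR adjusted p of 0.954, and to -1.42 without PAP animal 3. Grm5 is also a receptor of neurons: in PAP animal 3, where it was highest, the neuron markers summed to 683 CPM. Of these, Camk2a at 218 CPM and Syt1 at 248 CPM lay above every Astro library, as they did in all PAP libraries, and both were highest in PAP animal 2. The other 8 neuron markers lay below every Astro library in PAP animal 3, with Gad1, Gad2, Nefl, Tubb3 and Neurod6 at 0. The part of neuronal RNA in the Grm5 level was not tested.

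The balance between these receptors was set within each library, where scaling plays no part. In Astro the log2 ratio of Grm3 to Grm5 counts, with 0.5 added to each, was 3.75, 3.37 and 2.57, so Grm3 counts were higher in all 3 animals. In PAP it was 1.58, -5.29 and -0.81, of which the first rests on 1 count against 0. The mean difference, PAP minus Astro, was -4.73 and every PAP ratio lay below every Astro ratio. Without PAP animal 1 it was -6.28, and without PAP animal 2 it was -2.84. The two-sided exact permutation test gave p = 0.1, the smallest that 3 libraries against 3 allow, and 0.2 after adjustment over the 2 ratios examined.

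Gabbr1 and Gabbr2 encode the subunits of the GABA-B receptor, in which the first binds GABA and the second carries the signal to Gi. Gabbr1 (chromosome 17, 37045966 to 37075067, plus strand) was detected in every library, at 268, 294 and 197 CPM in Astro and 69.4, 276 and 315 CPM in PAP. PAP animals 2 and 3 lay at or above the Astro level and animal 1 below it, so the groups overlapped. Its log2 difference of -0.20 ± 0.57 (SE; edgeR adjusted p = 0.872) was the closest to 0 of the 9 receptors with PAP counts, and was 0.18 without PAP animal 1.

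Gabbr2 (chromosome 4, 46662305 to 46991873, minus strand) stood at 18.1, 45.0 and 11.7 CPM in Astro and at 31.6, 112 and 1.32 CPM in PAP. It was the only receptor whose PAP level was highest in animal 2 and lowest in animal 3, and its Astro libraries followed the same order. PAP animal 2 was also the PAP library with the highest neuron marker sum; the part of neuronal RNA in this level was not tested. The log2 difference was 0.95 ± 1.38 (SE; edgeR adjusted p = 0.730), and turned to -0.10 with the animal as a block and to -0.67 without PAP animal 2. The log2 ratio of Gabbr1 to Gabbr2 counts was 3.89, 2.71 and 4.07 in Astro and 1.13, 1.30 and 7.73 in PAP. PAP animals 1 and 2 thus lay below all Astro libraries and animal 3, with 4 Gabbr2 counts, above them. The mean difference was -0.17, with an exact permutation p of 1.0, and was -2.34 without PAP animal 3, with an exact permutation p of 0.1, the smallest those 5 libraries allow.

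Adora1 encodes the adenosine A1 receptor, a Gi-coupled receptor for the adenosine that forms from released ATP. It lies on chromosome 1, 134199223 to 134235431, minus strand, and shares 1162 exonic bases with Mybph on the opposite strand, so reads of the pair could not be told apart if strand was not used in counting. Mybph itself was listed at 187, 192 and 198 counts in Astro and 0, 0 and 19 in PAP. Adora1 was at 132, 152 and 141 CPM in Astro, with the lowest coefficient of variation of the 10 receptors there, 7.07%. In PAP it was at 16.3, 0 and 185 CPM, with animal 3 above every Astro library and animal 2 at 0 counts in all 8 technical replicates. The log2 difference was -1.07 ± 1.64 (SE) and edgeR's adjusted p was 0.746. It was -3.22 with the animal as a block and -4.18, -0.55 and -0.66 without PAP animals 3, 2 and 1, and no setting tried passed the test.

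Adra1a encodes the alpha-1A adrenergic receptor, which answers noradrenaline through Gq. The gene (chromosome 14, 66635251 to 66771168, plus strand) gave 208, 77 and 91 counts in Astro animals 1 to 3, or 11.2, 4.52 and 4.62 CPM, and 0 counts in every PAP library. It was the scarcest of the 10 receptors in Astro and the one receptor with no PAP count. The Astro mean was 4.38-fold higher than the highest PAP floor of 3 counts per library, a floor that covers counting error only. The edgeR adjusted p was 0.0222, for a gene that entered the test through its Astro counts alone. With every library thinned to 1829962 counts, the Astro libraries still held 21, 6 and 10 counts against 0 in each PAP library, too few for the filter. The call was lost with the animal as a block (edgeR adjusted p = 0.206) and without any 1 of the Astro libraries (edgeR adjusted p = 0.0748 to 0.0881).

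S1pr1 encodes a receptor for sphingosine 1-phosphate, a lipid carried in blood and made by many brain cells, and couples to Gi. It lies on chromosome 3, 115710433 to 115715072, minus strand. Its levels were 1982, 1852 and 1372 CPM in Astro and 230, 315 and 713 CPM in PAP. All 3 PAP libraries lay below all 3 Astro libraries, and within each animal PAP was the lower compartment. S1pr1 was lower in PAP by a log2 difference of -2.05 ± 0.47 (SE; edgeR adjusted p = 0.0250), the largest difference among the receptors detected in all 6 libraries. The edgeR adjusted p was 0.199 with the animal as a block, 0.0880 to 0.108 without any 1 of the Astro libraries and 0.0630 without PAP animal 2. Over the 19 settings the adjusted p of edgeR, DESeq2 or limma ran from 5.73e-05 to 0.234 and the log2 difference from -2.74 to -1.80. The highest adjusted p came from limma voom with weights for each group, which did not call S1pr1.

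Gpr37l1 encodes a receptor of glial cells for which prosaposin has been proposed as a ligand. It lies on chromosome 1, 135160234 to 135167681, minus strand. Levels were 1944, 1691 and 1039 CPM in Astro and 368, 491 and 788 CPM in PAP. The groups did not overlap, and PAP animal 3 came nearest to the Astro range. Gpr37l1 was lower in PAP by a log2 difference of -1.51 ± 0.38 (SE; edgeR adjusted p = 0.0354). The edgeR adjusted p was 0.206 with the animal as a block, 0.0757 at equal depth, 0.0809 to 0.164 without any 1 of the Astro libraries, and 0.0554 and 0.0800 without PAP animals 1 and 2. Over the 19 settings it ran from 0.000677 to 0.534 by edgeR, DESeq2 or limma, and the log2 difference from -1.93 to -1.27. The value of 0.534 came from limma voom with weights for each group, so that fit did not call Gpr37l1.

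Ntsr2 and Ednrb are the peptide receptors of the list, for neurotensin and for endothelins, respectively, and Ednrb is a known regulator of reactive astrocytes. Ntsr2 (chromosome 12, 16653382 to 16660227, plus strand) was at 1445, 1724 and 1103 CPM in Astro and 195, 556 and 1173 CPM in PAP, where animal 3 reached the Astro range. Its log2 difference was -1.15 ± 0.61 (SE; edgeR adjusted p = 0.278), and was -1.99 without PAP animal 3 (edgeR adjusted p = 0.0455) and -0.76 without PAP animal 1 (edgeR adjusted p = 0.209). Ednrb (chromosome 14, 103814625 to 103844402, minus strand) was at 374, 339 and 187 CPM in Astro and 50.0, 139 and 253 CPM in PAP, again with animal 3 inside the Astro range. Its log2 difference was -1.02 ± 0.62 (SE), and edgeR's adjusted p was 0.348; the difference was -1.73 without PAP animal 3 and -0.66 without PAP animal 1.

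**Figure D2:**
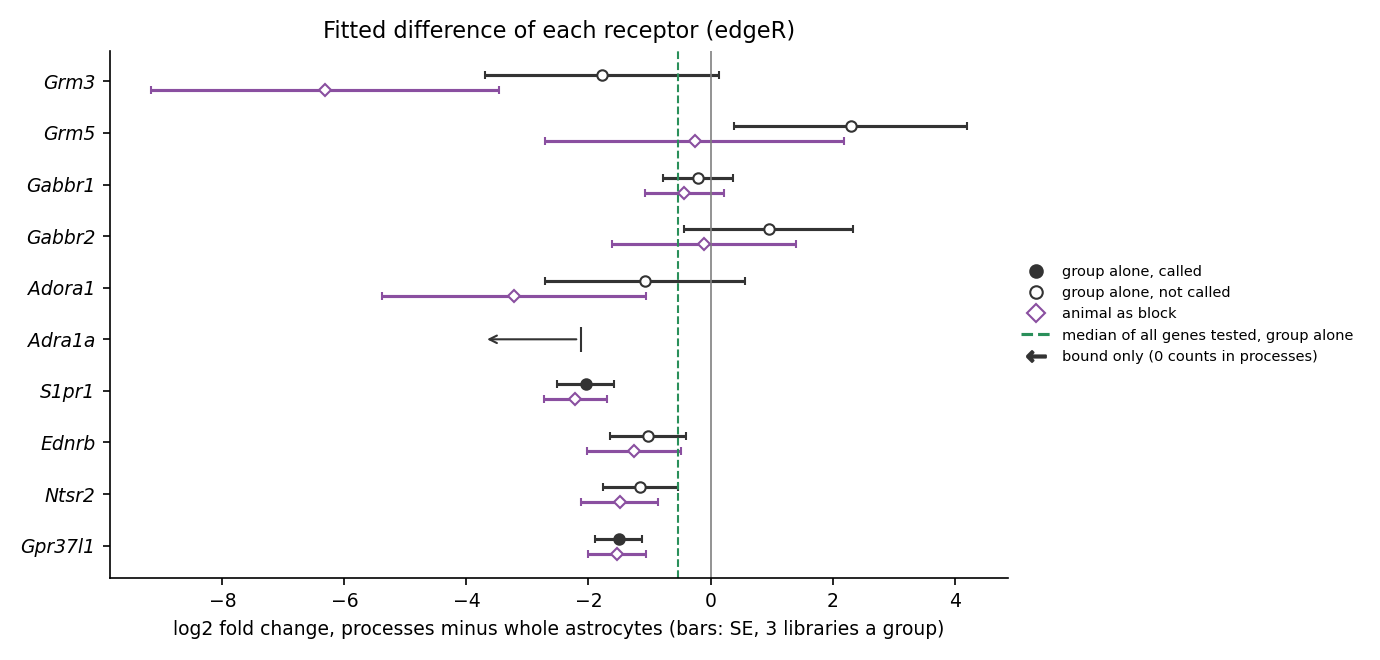
Fitted log2 difference, PAP minus Astro, of each receptor with its SE (edgeR, 3 libraries a group), for the model of group alone and with the animal as a block; the dashed line is the median of all genes tested, -0.53. Only S1pr1 and Gpr37l1 have filled points (adjusted p under 0.05), and the bar with an arrow for Adra1a starts at its bound, since it had 0 counts in PAP.

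In PAP, 6 receptors, Grm5, Gabbr1, S1pr1, Ednrb, Ntsr2 and Gpr37l1, were lowest in animal 1 and highest in animal 3, an order found for 12.2% of all genes tested. The following marker sums had that order in PAP animals 1 to 3: astrocyte (3612, 8014 and 13751 CPM), oligodendrocyte (498, 773 and 1015 CPM) and oligodendrocyte precursor (0, 41.2 and 101 CPM). Ttr alone, of the ependyma and choroid plexus markers, had it as well (640, 6092 and 6612 CPM). Their part in the order of the receptors was not tested. Promoter sequence from RefSeq on GRCm38.p6 was found for 7 of the 10 receptors, as 8 start sites, and among these 6 for Gabbr1, Ednrb, Ntsr2 and Gpr37l1. The 250 bases before the RefSeq start of Gpr37l1, Ednrb and Gabbr1 are printed 5′ to 3′ as examples of receptors with that PAP order. Ntsr2 had that order too and is not printed. Capitals mark the core of the nuclear factor I site (TTGGC, on either strand), a factor family known for its role in astrocyte formation.
Gpr37l1 (chr1:135167682-135167931, minus strand): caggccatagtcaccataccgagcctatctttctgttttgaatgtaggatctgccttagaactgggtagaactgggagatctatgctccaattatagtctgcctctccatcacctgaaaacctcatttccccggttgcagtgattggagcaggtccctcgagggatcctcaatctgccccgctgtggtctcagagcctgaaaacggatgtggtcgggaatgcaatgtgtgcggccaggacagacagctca
Ednrb (chr14:103843702-103843951, minus strand): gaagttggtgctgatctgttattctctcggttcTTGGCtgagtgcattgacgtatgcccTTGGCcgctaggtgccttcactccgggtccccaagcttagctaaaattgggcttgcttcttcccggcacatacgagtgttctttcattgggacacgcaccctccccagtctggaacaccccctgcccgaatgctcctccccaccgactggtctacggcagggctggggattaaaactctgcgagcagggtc
Gabbr1 (chr17:37045716-37045965, plus strand): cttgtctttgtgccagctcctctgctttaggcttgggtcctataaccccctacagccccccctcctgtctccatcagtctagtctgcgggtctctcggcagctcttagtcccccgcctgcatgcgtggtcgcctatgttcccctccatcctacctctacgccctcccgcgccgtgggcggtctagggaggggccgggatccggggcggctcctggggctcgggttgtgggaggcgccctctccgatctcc
The RefSeq start of Ednrb lies inside the GENCODE gene, so its window falls within the gene span given above. The core occurred 2 times in Ednrb and 0 times in Gpr37l1 and Gabbr1. The windows of Ntsr2 and Grm3, not shown, held it 1 and 2 times, so 3 of the 8 receptor windows had it, and 41.5% of the 32851 RefSeq windows of this length held it. A TATA box (TATAAA, either strand) was in 0 of the 8 receptor windows and in 12.4% of all windows. The SOX core ACAAT, on either strand, was likewise in 0 of the 8 and in 27.7% of all windows. GC content was 52.0% for Gpr37l1, 56.8% for Ednrb and 66.0% for Gabbr1, against a median of 52.4% over all windows.

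Divided by exonic length, the receptors formed separate tiers in whole astrocytes. Gpr37l1 led with 687 ± 206 CPM per kilobase (SD, n = 3), followed by S1pr1 with 570 ± 106 and Ntsr2 with 456 ± 99.7, ranks 46, 66 and 99 of the 14618 genes tested. The ranges of these 3 overlapped, and all lay above Ednrb at 70.3 CPM per kilobase. Grm3 at 37.5, Gabbr1 at 32.6 and Adora1 at 24.5 CPM per kilobase followed, with each neighbour overlapping the next from Ednrb down to Adora1. Gabbr2 at 3.73 lay apart from both neighbours, above Grm5 at 1.22 and Adra1a at 0.776 CPM per kilobase, which overlapped.

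In PAP the same 3 receptors led, at 242 CPM per kilobase for Gpr37l1, 205 for Ntsr2 and 138 for S1pr1, ranks 226, 268 and 420. All 3 lay above Ednrb at 34.5 CPM per kilobase, and this was the only step between neighbours at which the PAP ranges did not overlap. Below it stood Gabbr1 at 28.3, Adora1 at 11.6, Grm3 at 10.9, Gabbr2 at 7.22 and Grm5 at 5.99 CPM per kilobase, with Adra1a at 0. The coefficient of variation over the 3 animals was 7.07% to 70.7% in Astro for the 10 receptors and 39.3% to 172% in PAP for the 9 with counts.

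Because astrocyte markers were themselves lower in PAP, each receptor was also set against their summed level in the same library, a description added after the data were seen. On this scale S1pr1 was 6.45%, 7.39% and 6.14% of the marker sum in Astro and 6.36%, 3.93% and 5.19% in PAP, so its groups overlapped, although PAP was the lower compartment in all 3 animals. Ntsr2, at 4.70%, 6.88% and 4.93% in Astro and 5.40%, 6.93% and 8.53% in PAP, overlapped too, with PAP the higher compartment in all 3 animals. Gpr37l1, at 6.33%, 6.74% and 4.65% in Astro and 10.2%, 6.12% and 5.73% in PAP, overlapped as well. Gabbr1 was 0.872%, 1.17% and 0.880% in Astro and 1.92%, 3.44% and 2.29% in PAP, with every PAP library above every Astro library. Ednrb was also higher in every PAP library, at 1.38%, 1.74% and 1.84% against 1.22%, 1.35% and 0.836%, though the nearest libraries differed by little.

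In all, 2 receptors were higher without overlap on this scale, where 22.8% of all genes tested were, and Adra1a alone was lower, where 16.7% were. Without Gfap and Aldoc, the markers summed to 7491 to 11934 CPM in Astro and 2098 to 6464 CPM in PAP. Against that sum, Gabbr1 remained above, at 3.31%, 8.21% and 4.87% in PAP against 2.24%, 2.49% and 2.63% in Astro. Ednrb then overlapped, and S1pr1 lay lower in every PAP library, at 10.9%, 9.38% and 11.03% against 16.6%, 15.6% and 18.3%. The share of all genes tested without overlap against this second sum was not computed.

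**Figure D3:**
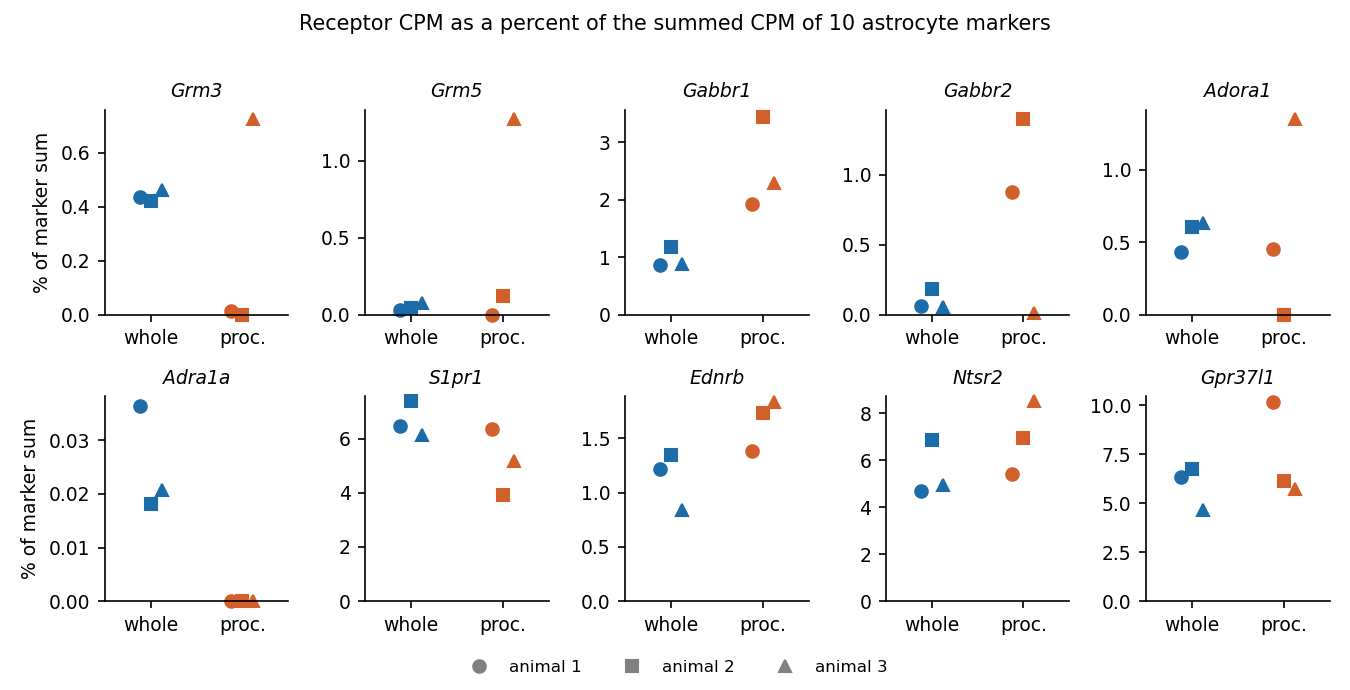
Level of each receptor as a percent of the summed CPM of 10 astrocyte markers in the same library, for whole astrocytes (whole) and perisynaptic processes (proc.), with symbols for animals and a separate axis from 0 for each receptor. Gabbr1 and Ednrb lie higher in all 3 PAP libraries, Adra1a is at 0 there, and the other 7 overlap.

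Genes that work with these receptors were described from 7 lists of 176 genes in all, of which 139 passed the filter. The edgeR test called 29 of them lower in PAP and 6 higher, while 104 passed in neither direction. These shares, 20.9% and 4.32%, compare with 15.4% and 5.92% over all genes tested. The median log2 difference was -1.01 against -0.53 over all genes tested. Of the 29, 22 had at most 3 counts in each PAP library. These 22 passed the filter on low counts through their Astro libraries alone, so they could be called only lower. With the animal as a block, 0 of the 139 passed by edgeR.

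Among 13 tested receptors of the same subfamilies as the 10, 4 were lower and 0 higher, with a median log2 difference of -1.70. Adra2a, the alpha-2A adrenergic receptor, had 516, 470 and 575 counts in Astro and 0 in every PAP library (edgeR adjusted p = 0.0208). Its Astro mean was 18.2-fold above the highest PAP floor, which covers counting error only. Adra2a passed the filter through its Astro libraries alone, so it could be called only lower. S1pr4 had 0 counts in all 6 libraries. Among 23 tested receptors of other families reported in astrocytes, 2 were lower and 0 higher, with a median of -0.93. The orphan receptor gene Gpr146 had 1267, 889 and 1016 counts in Astro and 0 in PAP (edgeR adjusted p = 0.0208). Its Astro mean was 37.0-fold above the highest PAP floor. Gpr146, too, entered the test through its Astro counts alone and could be called only lower.

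Of 25 tested G protein subunit genes, 5 were lower and 0 higher, with a median log2 difference of -1.06. Gnao1, the Go alpha subunit through which Gi-coupled receptors can also act, was at 587, 454 and 510 CPM in Astro and 77.0, 63.9 and 218 CPM in PAP, a log2 difference of -2.11 ± 0.53 (SE; edgeR adjusted p = 0.0345). Gna11, an alpha subunit of the Gq class, was at 141, 141 and 174 CPM in Astro and 36.7, 37.1 and 34.4 CPM in PAP, a log2 difference of -2.08 ± 0.40 (SE; edgeR adjusted p = 0.0208). The PAP libraries were close together for Gna11, unlike those of the receptors. Gnb2, a beta subunit, was lower by a log2 difference of -1.46 ± 0.38 (SE, edgeR adjusted p = 0.0374). Gnb4 had 0 counts in PAP (edgeR adjusted p = 0.0208), with an Astro mean 12.9-fold above the highest PAP floor. Because Gnb4 entered the test through its Astro counts alone, only a lower call was open to it.

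Of 23 tested genes that silence receptors or G proteins, 6 were lower, 2 higher and 15 not called, with a median log2 difference of -0.95. Grk6, a receptor kinase, was higher in PAP, at 323, 182 and 332 CPM against 28.7, 26.5 and 27.3 CPM in Astro. Its log2 difference was 3.34 ± 0.40 (SE; edgeR adjusted p = 0.00963). Rgs10, an RGS protein acting on Gi, was at 33.7, 44.8 and 59.1 CPM in PAP against 7.84, 7.16 and 6.45 CPM in Astro (log2 difference 2.68 ± 0.72, SE; edgeR adjusted p = 0.0433). Rgs12 was lower (edgeR adjusted p = 0.0208), with 708, 662 and 716 counts in Astro and 0, 1 and 0 in PAP. Rgs6 was lower as well (edgeR adjusted p = 0.0208), with 376, 246 and 520 counts in Astro and 1, 0 and 1 in PAP. Rgs12 and Rgs6 passed the filter through their Astro libraries alone, so they could be called only lower.

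Effectors of calcium and cyclic AMP signalling gave 5 lower and 3 higher genes of 25 tested, with a median log2 difference of -0.74. Both type II regulatory subunits of the cyclic AMP-dependent kinase were higher in PAP: Prkar2a stood at 419, 498 and 323 CPM against 74.8, 99.6 and 103 CPM in Astro, a log2 difference of 2.16 ± 0.32 (SE; edgeR adjusted p = 0.0194). Prkar2b stood at 85.2, 291 and 62.1 CPM against 11.6, 15.1 and 20.9 CPM, a log2 difference of 3.20 ± 0.77 (SE; edgeR adjusted p = 0.0294). In contrast, Pde4b, which breaks down cyclic AMP, had 2471, 1140 and 2495 counts in Astro and 2, 0 and 2 in PAP (edgeR adjusted p = 0.0199). Plcb3, a phospholipase C downstream of Gq, had 961, 690 and 1143 counts in Astro and 2, 0 and 0 in PAP (edgeR adjusted p = 0.0238). Pde4b and Plcb3 passed the filter through their Astro libraries alone and could be called only lower.

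Of 14 tested genes for ligands and for enzymes that make or remove them, 4 were lower and 0 higher. Their median log2 difference was -0.57, and -0.15 with genes at 0 in PAP set at their bound. Adk, which clears adenosine, was lower, at 842, 538 and 642 CPM in Astro and 131, 127 and 216 CPM in PAP, a log2 difference of -2.09 ± 0.34 (SE; edgeR adjusted p = 0.0208). Entpd2, an enzyme of the path from ATP to adenosine, had 999, 981 and 478 counts in Astro and 0 in PAP (edgeR adjusted p = 0.0208). Its Astro mean was 29.2-fold above the highest PAP floor. Entpd1, a relative of Entpd2, had 662, 484 and 667 counts in Astro and 1, 0 and 0 in PAP (edgeR adjusted p = 0.0208). For these Entpd genes the filter was passed through Astro alone, so only a lower call was possible.

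Scaffolds and auxiliary subunits of the receptors gave 3 lower and 1 higher gene of 16 tested, with a median log2 difference of -0.53. Homer2, which links receptors such as Grm5 to calcium stores, was higher in PAP, at 158, 144 and 112 CPM against 28.7, 33.0 and 33.5 CPM in Astro. Its log2 difference was 2.12 ± 0.43 (SE; edgeR adjusted p = 0.0208), and its groups did not overlap, whereas those of Grm5 did. Slc9a3r1, a membrane scaffold that binds ezrin, was lower, at 863, 613 and 810 CPM in Astro and 41.3, 26.3 and 142 CPM in PAP (log2 difference -3.45 ± 0.69, SE; edgeR adjusted p = 0.0208). Cav1, the caveolin of membrane pits, had 307, 468 and 594 counts in Astro and 0 in PAP (edgeR adjusted p = 0.0208). Its Astro mean was 15.98-fold above the highest PAP floor. Cav1 passed the filter through its Astro libraries alone, so it could be called only lower.

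**Figure D4:**
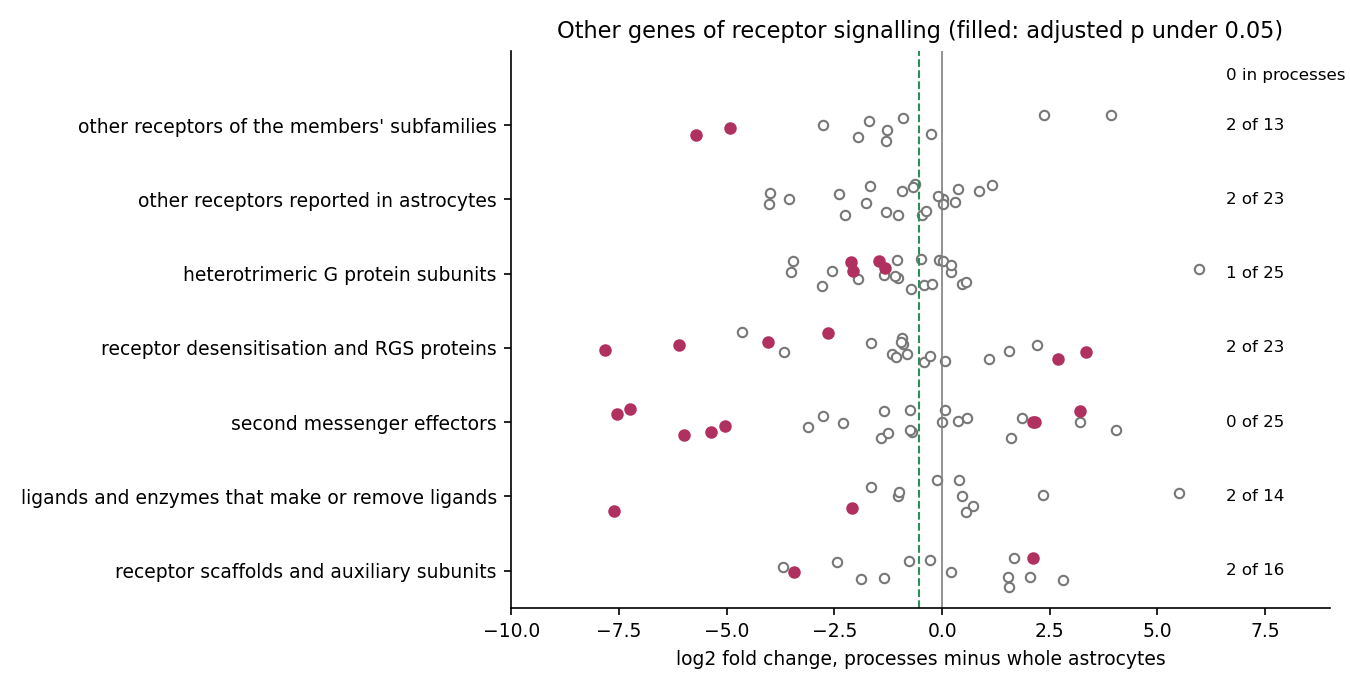
Log2 difference, PAP minus Astro, of the 128 tested genes with PAP counts in the 7 lists of receptor signalling, 1 point a gene, filled where the edgeR adjusted p is under 0.05; numbers at the right count the genes at 0 in all PAP libraries, which are not drawn. The dashed line is the median of all genes tested, -0.53, and most points in each list are open.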

How the data were processed

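Per the labels, 3 mice gave Astro and PAP samples, each deposited as 8 technical replicates. Per the file headers, each deposited file pairs an Ensembl gene ID with a count; the authors' values are whole numbers whose totals differ between samples, so they are unscaled. The submitters' processing notes name bcl2fastq 2.18.0.12, Trim Galore 0.4.1, STAR 2.5.2b, SAMtools, HTSeq 0.5.3 and mm10; the annotation and strand setting are not given in the sources used here. Per the labels' protocols, extracts were pre-cleared on columns without antibody and with unspecific mouse IgG, RNA was amplified with SMART-Seq v4 and libraries were made with Nextera XT. No molecular identifiers are mentioned, so floors cover counting error only.

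The 8 counts per gene were summed, giving 6 libraries of 1829962 to 20293538 counts. Symbols, positions and lengths came from GENCODE M21 on GRCm38, which held 47224 of 47643 IDs (99.1%). Libraries were tested with edgeR 4.0.16 (R 4.3.3; filterByExpr with a minimum count of 10, TMM, quasi-likelihood F test, group alone, adjusted p under 0.05). SEs are the log2 difference over the square root of F. The test was tried on simulated data with known answers; at the spread estimated here it missed most large changes, so a gene not called is not shown to be alike in both compartments. Both compartments came from the same animals per the labels, which pairs the samples. Deviations of Astro and PAP from their group means had a mean correlation of 0.00652 within an animal and -0.00324 between animals. The animal block is therefore the alternative. The other alternatives were equal depth, DESeq2 1.42.0, limma 3.58.1 voom, other scalings and filters, parts of the technical replicates, and leaving out each library. Named genes were the 10 receptors and, per list, up to 4 called genes with a mean of at least 10 CPM and the largest log2 difference; a receptor of the same subfamilies at 0 in all 6 libraries may be named as such, and names outside this rule are marked. A gene at 0 in all PAP libraries has its fold only as a bound against 3 counts, which covers counting error and no loss before sequencing. The receptors, lists and tests were chosen with earlier results of these data known.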

Additional observations from a re-analysis of the deposited data

How the results depend on the processing

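The number of receptors called, 3 by the edgeR test, was 0 with the animal as a replicate block, 1 at equal depth, 0 at equal depth with the replicate block, 1 where a gene needed 100 counts on average, 0 at an adjusted p under 0.01, and 0 to 5 without 1 library. It was 0 without any 1 Astro library, 1 without PAP animal 2 and 5 without PAP animal 3. All genes called numbered 3115, and 133 with the block, 1647 at equal depth, 179 with both, 5141 by the DESeq2 Wald test, 1414 with that filter, 163 at an adjusted p under 0.01, and 115 to 4586 without 1 library. Genes of the 7 lists called numbered 35, and in the same order 0, 23, 1, 58, 21, 1 and 0 to 56. The block turned the log2 difference of Grm5 to -0.26 and of Gabbr2 to -0.10. With limma voom and a variance weight per group, Grm5 came to -0.90 and Gabbr2 to -0.22. Gabbr1 turned to 0.040 at equal depth. Without 1 library, the log2 difference ran from -0.62 to 0.18 for Gabbr1, from -0.67 to 1.73 for Gabbr2 and from -1.42 to 2.83 for Grm5. The log2 ratio of Gabbr1 to Gabbr2, -0.17 as reported, was 0.073 at equal depth and ran from -2.34 to 0.96 without 1 library. The cause was not tested in each case, beyond the fewer genes or samples that a setting leaves. The other receptors kept their direction in every setting run (16 for Adra1a, which was not tested at equal depth, with or without the block, or under the filter of 100 counts, and 19 for the rest), and the ratio of Grm3 to Grm5 did so as well, with an exact p of 0.25 under the paired sign-flip test and a difference of -6.28 to -2.84 without 1 library.

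Another scaling by library size alone moved the median log2 difference of all genes from -0.53 to -0.37 and that of the receptors from -1.11 to -0.98. The receptors' median lay above that of all genes with the block (-1.51 and -1.63), with voom (-1.39 and -1.62) and without PAP animal 1 (-0.71 and -0.88). Leaving Gfap and Aldoc out of the marker sum, chosen after seeing the data, gave 1 receptor higher in place of 2 and 2 lower in place of 1. For that sum no share over all genes was computed. The PAP floor of 0.991 to 1.55 CPM is near the Astro level of Adra1a, 4.52 to 11.2 CPM, so small remainders of scarce receptors in PAP were not detectable at this depth.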

Other observations

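The uneven PAP detection of Grm3, Grm5 and Adora1 was alike in the technical replicates of each library. These repeat the same sample, so their agreement cannot show whether the pattern would recur in another pulldown. In PAP animal 3, each of the 8 technical replicates held 27 to 52 counts of Grm3, 53 to 83 of Grm5 and 53 to 96 of Adora1, while Adora1 in animal 2 and Grm5 in animal 1 were at 0 in all 8. Over 52 pairs of receptor and library with at least 10 counts, the index of dispersion among the 8 technical replicates, which is 1 for counting noise alone, had a median of 1.14 and a highest value of 11.3, for Ntsr2 in Astro animal 2.

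Some other receptors, picked and named here after their values were seen, also had PAP counts mainly in 1 library. Others did not, such as Adgrg1, with 139, 124 and 173 PAP counts, and Adgrl1, with 47, 109 and 171. No tally of this pattern was made over the lists or over all genes. Gpr37, the closest relative of Gpr37l1, had 958, 720 and 851 counts in Astro and 0, 2 and 166 in PAP. S1pr2, a relative of S1pr1, had 205, 125 and 97 counts in Astro and 0, 38 and 0 in PAP. Lpar1, a receptor for lysophosphatidic acid, had 155, 160 and 200 counts in Astro and 0, 16 and 0 in PAP.

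The genes whose levels over the 6 libraries lay nearest to a receptor's were sought for the 3 most abundant receptors, by the root mean square difference of log2(CPM + 1) after centring on the Astro mean, among 9973 genes. For Gpr37l1 these were Tmed7, Slc1a3 and Gm14341, at 0.156, 0.156 and 0.159. For S1pr1 they were Farp2, Lysmd2 and Cox19, at 0.152, 0.177 and 0.182. For Ntsr2 they were Selenof, Ntrk2 and Tprkb, at 0.130, 0.154 and 0.185.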
